A study of Mus musculus with 52 samples.

Results

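P4ha1 encodes the catalytic alpha subunit of collagen prolyl 4-hydroxylase, and it was followed here together with 8 further genes that low oxygen induces: P4ha2, Egln3, Bnip3, Vegfa, Slc2a1, Pdk1, Ankrd37 and Ddit4. These 9 genes were taken by name from the 39144 genes listed in at least 1 of 8 tissues. P4ha1 was chosen by its own difference between Tug1-/- and wild-type animals in several tissues of these same libraries, and the other genes were chosen as hypoxia targets with results of these data known. The values below are therefore a description of levels and ratios, with no test.

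The study compared wild-type male mice with males homozygous for Tug1_tm1.1Vlcg, an allele in which a lacZ cassette stands in for the Tug1 long noncoding RNA downstream of exon 1. Primary mouse embryonic fibroblasts (MEFs), spleen, liver, heart and eyes were sampled 3 times per genotype, prostate 3 times in wild-type and 2 times in Tug1-/- males, all on a C57BL/6J/129S6 background without the Neo cassette. MEFs were grown from male littermate embryos to passage 2. Testes came from 4 wild-type, 4 Tug1-/- and 3 rescue males. The labels describe wild-type testes as without Neo and Tug1-/- and rescue testes as carrying Neo and LacZ, so the cassette and the genotype cannot be told apart there. Rescue males were Tug1-/- and carried tg(Tug1), a doxycycline-inducible Tug1 transgene switched on by CAGs-rtTA3, a transactivator driven by a promoter that is generally active in many cell types, and which cells of the testis expressed the transgene was not measured here. Rescue males received doxycycline in their food from before birth. No such diet is described for the other testes groups, and if they had none, drug and transgene cannot be told apart in the rescue comparisons. Ages are not given in the labels. A brain comparison in the same table came from libraries that are not among the samples of the series, and their number per genotype was not used here.

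Expression was given as the authors' mean TPM of each group (a measure that divides reads by gene length and scales each library to the same total, so that levels can be compared between genes). The tables give no value of a single sample, and the authors' own comparison statistics were not used, so the differences below are not set against the spread between replicates and carry no standard deviation or p-value. A ratio is the log2 of the Tug1-/- mean over the wild-type mean after 0.1 TPM was added to both, and where 2 means are given without their groups the wild-type mean comes first. A gene counted as past the limit when its means differed by more than 1.5-fold (0.585 on the log2 scale) and at least 1 group had 1 TPM. The mean normalised depth per library, summed over genes, ran from 17600000 reads in brain to 48300000 in eyes and is not given for testes. Tug1 itself checked the genotype labels: Tug1-/- testes retained 2.21% of the wild-type mean and the other tissues between 0.0825% and 0.512%. In each tissue the 3 defining markers summed to a higher wild-type level than in any other tissue, by 3.63-fold (brain) or more.

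The hypoxia response is driven by hypoxia-inducible factors (HIFs), whose alpha subunits are hydroxylated by oxygen-dependent prolyl hydroxylases and degraded when oxygen is plentiful. In low oxygen the alpha subunits persist, pair with a beta subunit and bind short core motifs near genes of glucose uptake, glycolysis, angiogenesis, mitochondrial turnover and collagen maturation. Several of these genes also answer to other signals, and Ddit4 in particular is induced by glucocorticoids, fasting and cellular stress.

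The HIF core motif is ACGTG or, less often, GCGTG. A RefSeq promoter window (250 bases before to 50 after the gene start, GRCm38.p6) was matched for all 9 genes, giving 11 windows because Vegfa and Pdk1 have 2 starts. The promoters of P4ha1, Ddit4 and P4ha2 are shown because these were the 3 genes past the limit in heart. They lie at chr10:59323046-59323345 (plus strand), chr10:59951721-59952020 (minus strand) and chr11:54100674-54100973 (plus strand). Each is written 5′ to 3′ on the strand of its gene. Capitals mark the core motif. ACGTG reads as CACGT when it lies on the other strand, while the second form then reads as CACGC, and overlapping matches were counted separately.

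P4ha1: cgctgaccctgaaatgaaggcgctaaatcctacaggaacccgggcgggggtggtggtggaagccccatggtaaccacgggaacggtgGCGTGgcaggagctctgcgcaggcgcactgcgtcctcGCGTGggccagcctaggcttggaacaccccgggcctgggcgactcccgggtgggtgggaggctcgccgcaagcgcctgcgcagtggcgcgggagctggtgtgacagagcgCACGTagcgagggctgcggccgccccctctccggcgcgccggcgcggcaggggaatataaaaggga
Ddit4: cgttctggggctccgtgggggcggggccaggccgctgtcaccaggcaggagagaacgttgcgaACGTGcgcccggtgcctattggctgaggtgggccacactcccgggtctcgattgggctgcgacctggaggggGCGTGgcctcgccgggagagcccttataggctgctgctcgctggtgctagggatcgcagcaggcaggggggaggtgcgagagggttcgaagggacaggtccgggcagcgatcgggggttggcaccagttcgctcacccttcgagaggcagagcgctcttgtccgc
P4ha2: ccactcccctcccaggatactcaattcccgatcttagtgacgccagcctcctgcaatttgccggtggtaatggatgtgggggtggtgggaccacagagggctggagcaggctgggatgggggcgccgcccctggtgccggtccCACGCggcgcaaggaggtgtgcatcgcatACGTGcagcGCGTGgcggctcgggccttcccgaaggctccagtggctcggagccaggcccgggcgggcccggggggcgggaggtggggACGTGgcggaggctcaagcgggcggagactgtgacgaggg

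The P4ha1 window held 3 matches, the Ddit4 window 2 and the P4ha2 window 4. Among all 11 windows, 9 held at least 1 match. The motif is short and common: 43.8% of all 32851 RefSeq windows of this length held a match, and 19.6% held the ACGTG form on either strand. Windows with 4 or more matches made up 3.86% of all windows, and those of P4ha2, Bnip3 (5 matches) and Ankrd37 (4 matches) were among them. A match is a description of letters and says nothing of binding in these tissues.

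P4ha1 (chromosome 10, 59323296 to 59373304, plus strand, GRCm38) showed its largest ratios in liver and heart. Its mean in liver was 4.94 TPM in wild-type against 13.1 TPM in Tug1-/- animals, a 2.63-fold difference (log2 1.39). The heart means were 21.6 and 37.8 TPM, a 1.75-fold difference (log2 0.80). Among genes with at least 1 TPM, 0.512% in liver and 0.985% in heart had a ratio as high or higher. Tug1-/- bulk tissue can show a higher level through more RNA per cell or through more cells of an expressing type, and these cannot be told apart. With a mean of 664 normalised reads per liver library and 2443 per heart library, the 95% interval from counting alone was ±0.09 in liver and ±0.05 in heart on the log2 scale, which leaves out the variation between animals.

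In spleen P4ha1 went from 34.5 to 49.4 TPM and in prostate from 23.9 to 32.3 TPM. These are ratios of 0.52 and 0.43, in the same direction as liver and heart but under the limit of 1.5-fold. The spleen ratio came to 0.61, past the limit, when ratios were centred on the median of abundant protein-coding genes. The eyes had 74.8 and 86.2 TPM (0.20) and the testes 15.5 and 17.7 TPM (0.19). Brain and MEFs had the opposite sign and small ratios, with 54.4 and 53.2 TPM in brain (-0.03) and 347 and 319 TPM in MEFs (-0.12). P4ha1 was thus above 0 in 6 of 8 tissues, and neither centring nor rescaling changed its sign in any of them.

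Across wild-type tissues the P4ha1 level spanned 70.2-fold. MEFs, which secrete collagen in culture, were the highest, followed by eyes, brain, spleen, prostate, heart, testes and liver. Liver remained the lowest of the 8 tissues in Tug1-/- animals as well, where its 13.1 TPM stood below the 17.7 TPM of testes. Whether neighbours in this order, such as prostate and heart, differ beyond the spread of their samples cannot be judged from group means.

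**Figure D1:**
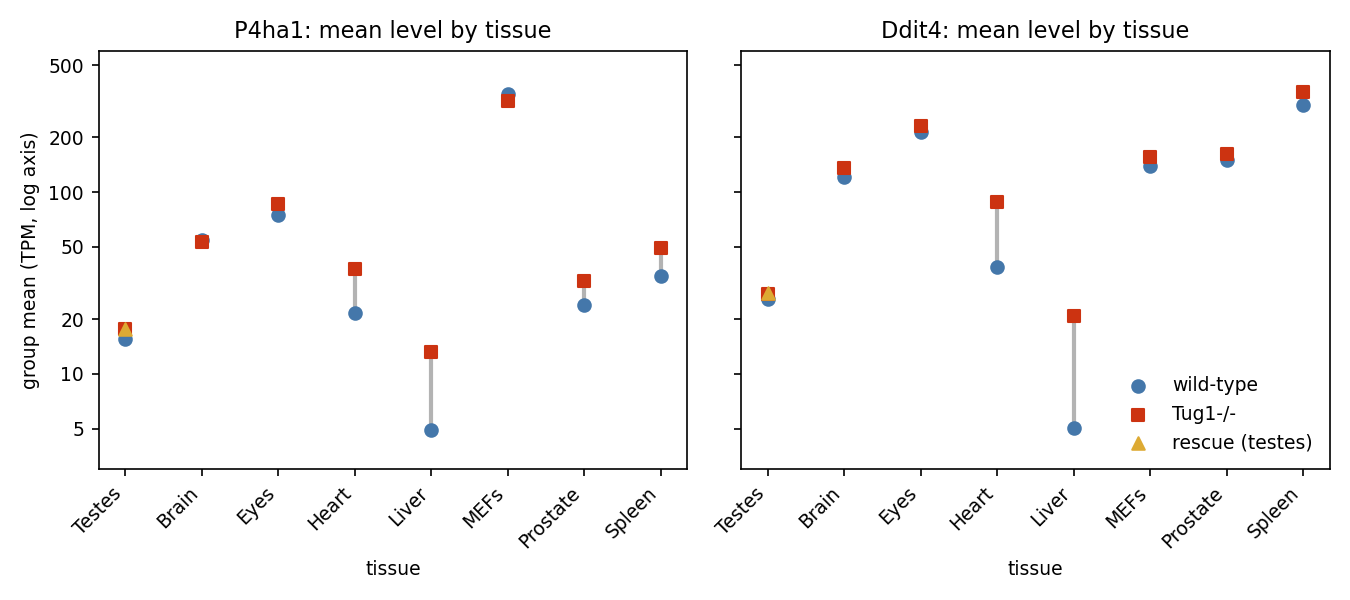
Group mean levels of P4ha1 (left) and Ddit4 (right) in TPM on a log axis, by tissue, for wild-type (circles), Tug1-/- (squares) and rescue testes (triangle), with a grey line joining the wild-type and Tug1-/- means of a tissue. The lines are longest in liver (4.94 to 13.1 TPM for P4ha1, 5.06 to 20.9 TPM for Ddit4) and in heart, while the 3 testes means lie close together.

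P4ha2 (chromosome 11, 54100095 to 54131665) encodes a second alpha subunit of the same enzyme. It was past the limit in heart, where its mean went from 11.7 to 18.6 TPM (log2 0.66, 1.58-fold), a ratio reached by 1.54% of heart genes. The median gene of heart had a ratio of 0.10, and P4ha2 dropped under the limit once ratios were centred (0.53) or TPM were rescaled without mitochondrial and the 50 most abundant genes (0.54). P4ha1 kept a heart ratio of 0.67 under centring and 0.68 under rescaling. In liver, where P4ha1 showed its largest ratio, P4ha2 was at 2.24 and 2.62 TPM (0.22). Both alpha subunits were above 0 in eyes, heart, liver, prostate and spleen. In testes they had opposite signs, with P4ha2 at 6.67 TPM in wild-type against 5.56 TPM in Tug1-/- animals (-0.26).

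Ddit4 (chromosome 10, 59949669 to 59951834, minus strand) encodes an inhibitor of mTORC1 signalling and gave the largest ratio of the 9 genes in 3 tissues: liver, heart and brain. Liver means were 5.06 TPM in wild-type against 20.9 TPM in Tug1-/- animals, a 4.08-fold difference (log2 2.03), and 16 liver genes had a higher ratio. Heart means were 38.6 and 88.0 TPM (2.28-fold, log2 1.19), with 53 genes higher. Under centring the heart ratio was 1.06. Ddit4 alone among the 9 genes was above 0 in 8 of 8 tissues. The other 6 ratios were small, from 0.09 in testes to 0.22 in spleen, where Ddit4 had its highest wild-type level (304 TPM). Its wild-type level was lowest in liver, as for P4ha1.

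Ddit4 and P4ha1 lie on the same chromosome, with their starts 629 kb apart. The window of 1 Mb on either side of the P4ha1 start held 29 other listed genes. In heart 13 of these reached 1 TPM and in liver 14, and in both tissues Ddit4 was the only other gene of the window past the limit. Over all genes 4.56% in heart and 6.02% in liver were past it. With so few genes in the window, nothing is read from these counts. In spleen 3 of 19 window genes at 1 TPM were past the limit, beside 10.5% of all spleen genes. All 3 were lower: Edar (1.91 to 1.08 TPM), Sept10 (13.6 to 8.86 TPM) and the microRNA gene Gm22117 (6.34 to 3.71 TPM). In testes 2 of 21 were past it, beside 6.26% of all testes genes. The small RNA gene Gm25055 was lower (3.97 to 2.48 TPM), and the microRNA gene Mir6906 was listed at 0 TPM in wild-type and at 1.22 TPM in Tug1-/- testes. Between rescue and Tug1-/- testes 3 of 21 were past it, beside 4.65% of all genes. Gm25055 (4.97 TPM in rescue) and Mir6906 (2.09 TPM) were higher and the pseudogene Gm7413 lower (3.26 to 2.08 TPM). Libraries of this kind capture such short RNAs poorly.

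**Figure D2:**
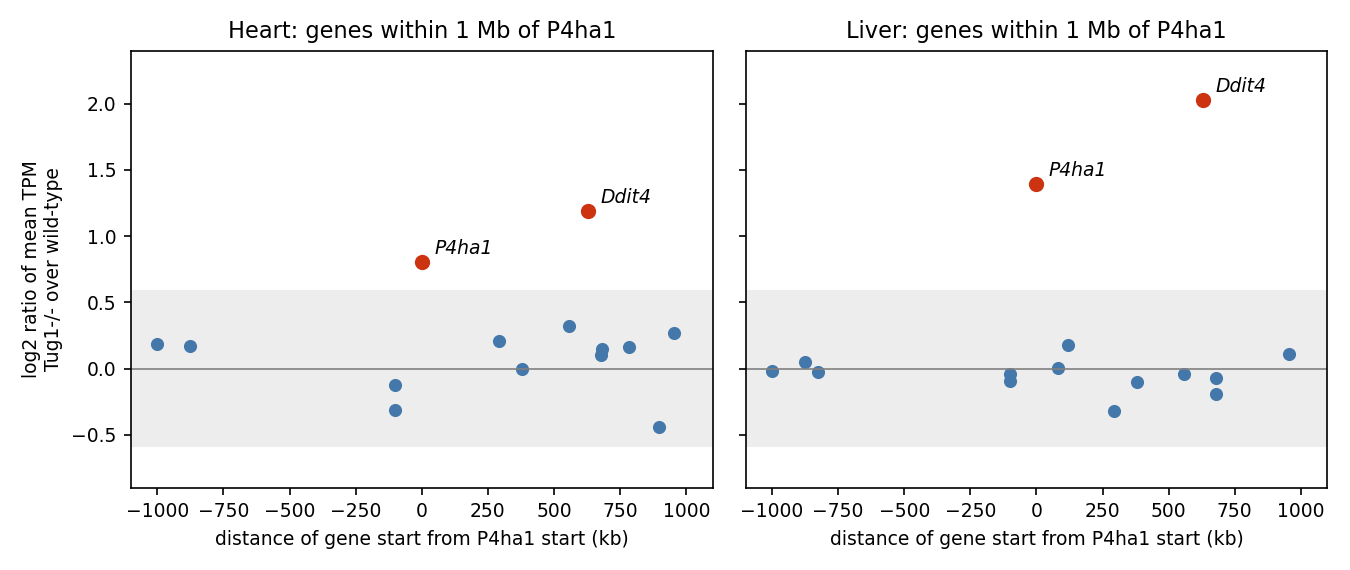
Log2 ratio of mean TPM (Tug1-/- over wild-type) against the distance of each gene's start from the P4ha1 start in kb, for genes with at least 1 TPM in heart (left) and liver (right); the grey band is within 1.5-fold. P4ha1 and Ddit4, 629 kb apart, are the only points outside the band.

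Most values of the group lay within the limit. Of the 72 pairs of gene and tissue, all with at least 1 TPM, 6 were past the limit and all 6 were higher in Tug1-/- samples. Heart held 3 of them (P4ha1, P4ha2 and Ddit4), against a background of 4.56% of all heart genes past the limit in either direction. Liver held 2 (P4ha1 and Ddit4), against 6.02%, and MEFs 1 (Egln3), against 7.73%. No member was past the limit in testes, brain, eyes, prostate or spleen, where 6.26%, 6.14%, 7.87%, 7.99% and 10.5% of all genes were. The count depends on the scaling: under centring P4ha2 in heart left it (0.53), P4ha1 in spleen joined it (0.61), and Vegfa and Egln3 in testes joined it as lower values (-0.61 each). Ankrd37 in liver joined it as a lower value under rescaling (-0.59) and without a pseudocount (-0.62), as did Egln3 in testes without one (-0.60). Since P4ha1 was chosen on this contrast and the group with results known, nothing is read from these shares.

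The median ratio of the 9 genes was 0.25 in heart beside a median of 0.10 over all heart genes, and all 9 were above 0, as were 74.8% of all heart genes. Under centring the heart median fell to 0.12, and Egln3 (0.02) and Pdk1 (0.01) came close to 0. Their median was -0.05 in liver and -0.14 in spleen, where 4 and 3 of the 9 genes were above 0. The medians over all genes were 0.01 in liver and -0.11 in spleen. Prostate had 8 genes above 0 with a median of 0.11, beside 0.04 over all genes. MEFs had 7 above 0 (median 0.05 for both), eyes 5 (0.06, beside -0.11), testes 5 (0.06, beside 0.03) and brain 3 (-0.03 for both). Over all genes the share above 0 was 52.7% in liver, 29.8% in spleen and 58.8% in prostate. It was 59.6% in MEFs, 27.7% in eyes, 61.7% in testes and 39.7% in brain. Liver combined the largest higher and some of the larger lower ratios.

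**Figure D3:**
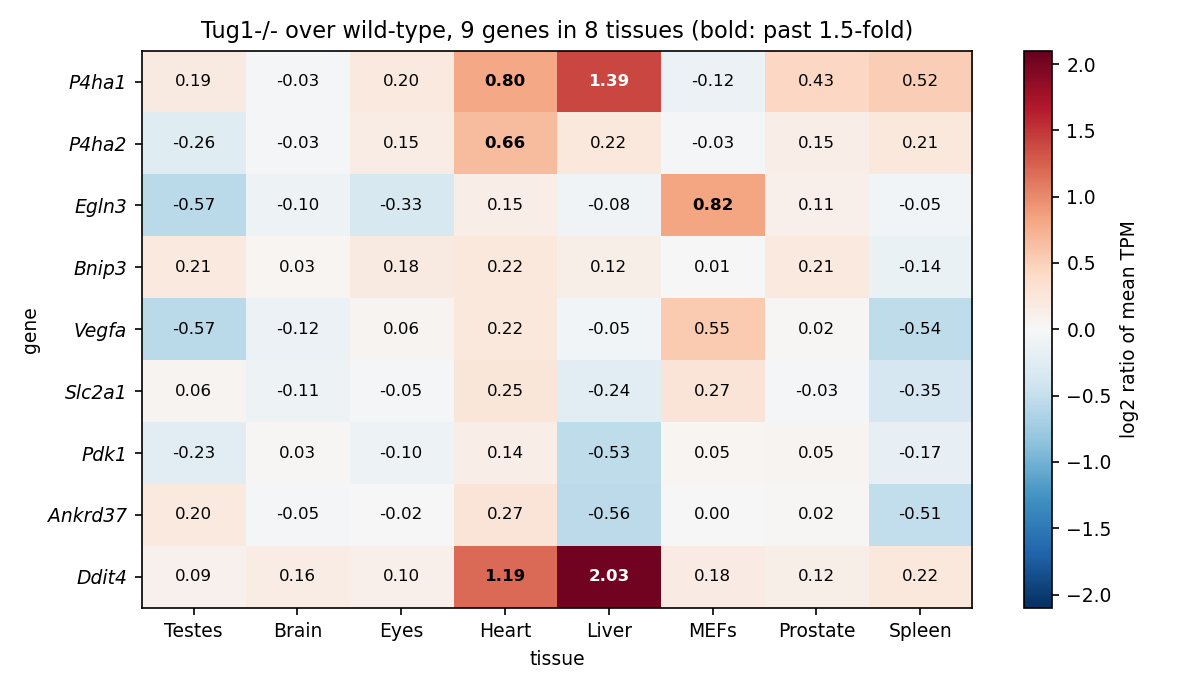
Log2 ratio of mean TPM (Tug1-/- over wild-type) of the 9 genes (rows) in 8 tissues (columns), red for higher and blue for lower in Tug1-/- samples, with values past 1.5-fold in bold. The bold values are in heart, liver and MEFs, the highest being 2.03 for Ddit4 in liver and the lowest value of the map -0.57 in testes.

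Egln3 (chromosome 12, 54178981 to 54203860, minus strand) encodes a HIF prolyl hydroxylase that is itself a HIF target. It was past the limit in MEFs alone among the 8 tissues, at 13.9 TPM in wild-type against 24.7 TPM in Tug1-/- cells (1.77-fold, log2 0.82). Vegfa (chromosome 17, 46016993 to 46032369, minus strand), the secreted ligand of angiogenesis, was also higher in MEFs, at 98.7 and 144 TPM, a ratio of 0.55 just under the limit. In testes the same 2 genes were the lowest of the 9. Egln3 had 2.098 and 1.384 TPM and Vegfa 6.27 and 4.18 TPM, both at -0.57, and both came to -0.61, past the limit, under centring. In spleen Vegfa was at 43.2 and 29.6 TPM (-0.54). Egln3 in eyes, its highest wild-type tissue, was at 90.7 and 72.0 TPM (-0.33).

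Slc2a1 (chromosome 4, 119108711 to 119137983) encodes the glucose transporter GLUT1. It had its highest level in eyes (371 and 359 TPM) and stayed within 1.5-fold in each tissue, from -0.35 in spleen (50.1 and 39.3 TPM) to 0.27 in MEFs (129 and 156 TPM). Pdk1 (chromosome 2, 71873224 to 71903858) encodes the kinase that holds back pyruvate dehydrogenase. Its lowest ratio was in liver, with 43.6 TPM in wild-type against 30.1 TPM in Tug1-/- animals (-0.53), in the same libraries in which Ddit4 and P4ha1 were highest. In the other 7 tissues it lay between -0.23 and 0.14.

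Bnip3 (chromosome 7, 138890836 to 138909519, minus strand), a receptor for the removal of mitochondria by autophagy, was the steadiest of the 9 genes, with ratios between -0.14 and 0.22. It was abundant in liver (134 and 146 TPM) and lowest in spleen (10.3 and 9.34 TPM). Ankrd37 (chromosome 8, 45996902 to 46005707, minus strand) encodes an ankyrin repeat protein. In spleen it was at 15.97 and 11.20 TPM (-0.51), with 309 reads per library. In liver it was at 1.19 and 0.774 TPM (-0.56), resting on a mean of 27.0 reads per library, where counting alone gave ±0.44. Annotated exons of Bnip3, Slc2a1 and Ankrd37 overlap genes on the opposite strand (Gm45507 for Bnip3, Gm12868 for Slc2a1, Lrp2bp and Ufsp2 for Ankrd37). The strand setting of the counting is not given in the sources used here, so reads from the overlapping parts may not be separable.

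**Figure D4:**
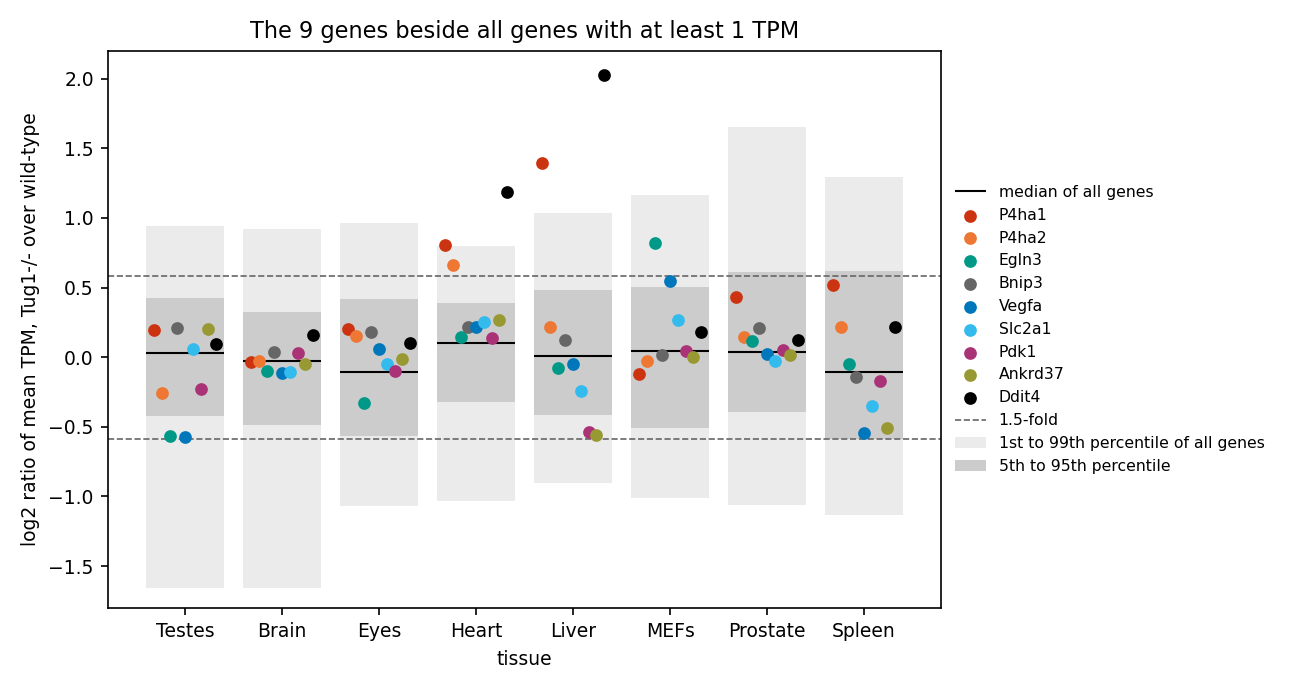
Log2 ratio of mean TPM (Tug1-/- over wild-type) of the 9 genes (coloured points) beside all genes with at least 1 TPM in that tissue, shown as the range from the 1st to the 99th percentile (light bars), from the 5th to the 95th percentile (dark bars) and the median (line). P4ha1 and Ddit4 lie above the light bar in heart and liver, and most other points lie within the dark bars.

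In testes the 3 groups allowed the transgene to be set beside the deletion. Tug1 was at 40.1 TPM in wild-type, 0.885 TPM in Tug1-/- and 1.60 TPM in rescue testes, so rescue testes held little Tug1 by this gene model. P4ha1 was at 15.48, 17.70 and 17.65 TPM in the same order, and Ddit4 at 25.68, 27.41 and 27.99 TPM. For both genes the rescue mean stayed beside the Tug1-/- mean. None of the 9 genes was past the limit between rescue and Tug1-/- testes, where 4.65% of all genes were and the members' ratios ran from -0.23 to 0.03. Between rescue and wild-type testes 2 genes were past it, both lower, with 7.93% of all genes past it in either direction.

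Those genes were Vegfa, at 6.27 TPM in wild-type, 4.18 TPM in Tug1-/- and 3.62 TPM in rescue testes (rescue over wild-type -0.78), and Egln3, at 2.098, 1.384 and 1.262 TPM (-0.69). In both, rescue lay further from wild-type than Tug1-/- did. P4ha2 followed the same order at 6.67, 5.56 and 4.85 TPM (-0.45). Between rescue and wild-type testes Egln3 left the count past the limit with a pseudocount of 1 TPM or a minimum of 5 TPM, while Vegfa stayed. Bnip3, at 11.1, 12.8 and 11.6 TPM, and Ankrd37, at 4.404, 5.074 and 4.308 TPM, had rescue means near wild-type, with ratios of rescue over wild-type of 0.06 and -0.03. Slc2a1 (6.40, 6.66 and 6.71 TPM) and Pdk1 (8.66, 7.39 and 7.24 TPM) had rescue means beside those of Tug1-/- testes. The testes comparisons share samples, so they are given side by side and not as separate evidence.

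Few genes of the HIF machinery itself were past the limit. A list of 8 genes of the pathway held the alpha and beta subunits, the prolyl and asparaginyl hydroxylases and Vhl, without Egln3. Of its 61 pairs of gene and tissue at 1 TPM or more, 1 was past the limit, beside 7.19% of pairs over all genes. The 7.19% takes in genes of every type and level from 1 TPM, so it is not matched by level to this or the later lists. The pair past the limit was Hif3a in heart, an alpha subunit that HIF also induces. It was at 0.325 TPM in wild-type against 1.16 TPM in Tug1-/- animals (log2 1.56). Hif1a, the main oxygen-regulated alpha subunit, had the lowest median of the list over the 8 tissues (-0.10). Its level was 28.1 and 25.1 TPM in heart and 23.68 and 21.01 TPM in liver, lower in Tug1-/- animals in both tissues. Hif1a is controlled mostly through its protein, which was not measured.

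Glycolysis genes, a list of 18, had 4 of 138 pairs past the limit in the higher and 1 in the lower direction, or 3.62% together beside the 7.19% of all genes. The list's median was 0.24 in liver and 0.20 in heart, with 12 of 13 and 15 of 17 genes above 0, beside medians over all genes of 0.01 and 0.10. Of all genes, 52.7% in liver and 74.8% in heart were above 0. Hk2, the inducible hexokinase, had the highest median over tissues (0.21) and was past the limit in none. Aldoc, a fructose-bisphosphate aldolase, had the lowest (-0.19), with -0.55 in spleen. The highest ratio of the list, in a gene picked here after its values were seen, was that of Pfkfb3, which makes the main activator of glycolytic flux. It was at 6.24 and 19.6 TPM in liver (1.63) and at 38.8 and 98.8 TPM in prostate (1.35).

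A list of 20 other hypoxia targets had 6 of 147 pairs past the limit upward and 4 downward, or 6.80% together, near the 7.19% of all genes. Hmox1, the haem oxygenase that oxidative stress also induces, had the highest median (0.42) and was past the limit in 3 tissues. Its means were 11.4 and 18.2 TPM in testes (0.67), 13.8 and 21.6 TPM in heart (0.65) and 19.5 and 35.3 TPM in liver (0.85). Vldlr, a lipoprotein receptor, had the lowest median among genes of the list present in all 8 tissues (-0.08) and was at 1.63 and 0.814 TPM in testes (-0.92). Targets of the same list in liver went both ways, with Adm, a vasodilator peptide, at 1.18 and 2.39 TPM (0.96) and the repressor Bhlhe40 at 107 and 66.8 TPM (-0.68), both picked after their values were seen.

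Among 10 further genes of collagen maturation, 2 of 75 pairs were past the limit (2.67%, beside the 7.19% of all genes). Serpinh1, the collagen chaperone, was at 8.62 and 13.4 TPM in liver (0.63), a gene named after its value was seen, and P4ha3, the least widely expressed alpha subunit, was at 2.19 and 1.31 TPM in prostate (-0.69). Plod2, a lysyl hydroxylase of collagen and a HIF target, had the highest median over tissues (0.21) and ratios of 0.39 in heart and 0.56 in testes. All 9 genes of this list with 1 TPM in heart were above 0 (median 0.20, lowest 0.07). Over all heart genes the median was 0.10 and 74.8% were above 0. The 5 fibrillar collagen genes, whose products the enzyme modifies, had 3 of 40 pairs past the limit (7.5%, beside the 7.19% of all genes). Col3a1 was at 6.17 and 9.30 TPM in liver (0.59) and at 34.5 and 22.9 TPM in spleen (-0.59), and Col1a2 had the lowest median of the 5 (-0.06). In liver all 5 collagen genes were above 0 (median 0.32), with Col5a2, named after its value was seen, at 0.827 and 1.83 TPM (1.06). In spleen 1 of the 5 was above 0 (median -0.42). Of all genes, 52.7% in liver and 29.8% in spleen were above 0. P4ha1 was higher in both tissues.

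Markers of other cell types moved in some of the same tissues. The summed level of 5 macrophage markers was 161 TPM in wild-type against 232 TPM in Tug1-/- liver (median ratio 0.46, 5 of 5 above 0, 1 past the limit) and 247 and 341 TPM in heart (0.43, 5 of 5, none past the limit). In prostate it was 129 and 194 TPM (0.62, 5 of 5 above 0, 3 past the limit). In spleen it was 2169 and 2077 TPM (-0.05, none above 0 or past the limit). Over all genes, 6.02% were past the limit in liver, 4.56% in heart, 7.99% in prostate, 10.5% in spleen and 7.73% in MEFs. The share above 0 was 52.7%, 74.8%, 58.8%, 29.8% and 59.6% in the same order. Over the 8 tissues 12.5% of the macrophage pairs of gene and tissue were past the limit, beside 7.19% over all genes. Adgre1 was past the limit in liver, prostate and MEFs, although in MEFs the other markers of the list were below 0 and the sum was 360 and 289 TPM (median -0.38, 1 of 5 above 0). In liver 4 smooth muscle markers summed to 5.24 and 8.77 TPM, with 2 past the limit, and Cnn1 among them was below 1 TPM in both groups. In heart the smooth muscle sum was 237 and 209 TPM.

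The 6 erythroid markers, which report blood in a tissue, summed to 44634 and 34960 TPM in heart (median -0.33, none past the limit) and to 779 and 789 TPM in liver (0.00). In spleen they summed to 25103 and 45199 TPM, with 6 of 6 past the limit, beside 10.5% of all spleen genes. In prostate the sum was 162 and 292 TPM, with 4 of 5 past it, beside 7.99% of all prostate genes. Over the 8 tissues 51.4% of the erythroid pairs of gene and tissue were past the limit, beside 7.19% over all genes. The alpha globin genes Hba-a1 and Hba-a2 are similar copies, as are the beta globin genes Hbb-bs and Hbb-bt, and reads may not be separable within a pair. Each of these genes was past the limit in 4 tissues, higher in eyes, prostate and spleen and lower in testes. Endothelial markers summed to 337 and 345 TPM in heart and 47.1 and 52.4 TPM in liver, with none past the limit, and fibroblast markers to 427 and 420 TPM and to 74.9 and 84.3 TPM. In prostate, where P4ha1 had a ratio of 0.43, fibroblast markers summed to 208 and 272 TPM (median 0.36, 4 of 4 above 0, 1 past the limit) and the fibrillar collagens had a median of 0.31 with 5 of 5 above 0. Of all prostate genes 58.8% were above 0 and 7.99% were past the limit. Over the 8 tissues the highest and lowest medians of these lists were those of Cdh5 (0.26) and Kdr (-0.05) for endothelium, C1qa (0.45) and Cd68 (0.18) for macrophages, Col6a1 (0.12) and Dcn (-0.07) for fibroblasts, and Cnn1 (0.09) and Tagln (-0.08) for smooth muscle. Alas2 (0.22) was the only erythroid gene listed in all 8 tissues. The part of these cell types in the ratios of P4ha1 and Ddit4 was not tested.

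**Figure D5:**
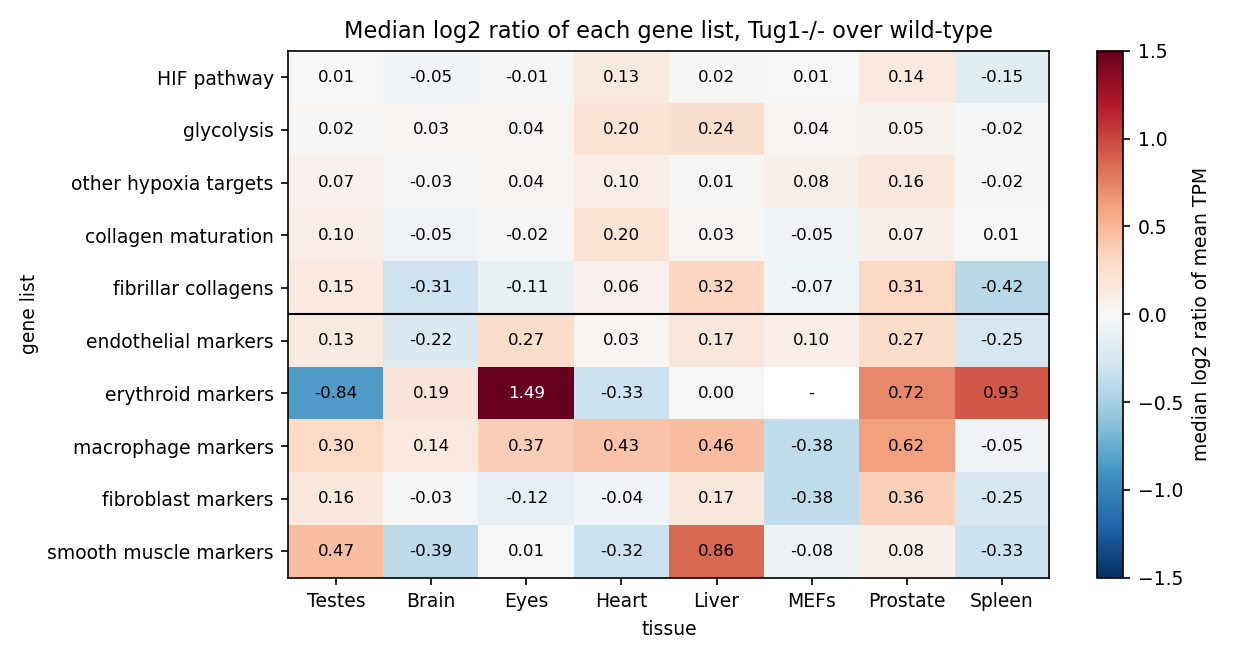
Median log2 ratio of mean TPM (Tug1-/- over wild-type) of each gene list (rows) in each tissue (columns), over list genes with at least 1 TPM; lists above the line belong to the hypoxia response and collagen, those below are cell type markers, and a dash marks no gene at 1 TPM. Medians of the HIF pathway, glycolysis and other hypoxia target lists lie between -0.15 and 0.24, while erythroid markers range from -0.84 in testes to 1.49 in eyes.

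Among 9026 other protein-coding genes with at least 1 TPM in wild-type samples of all 8 tissues, those whose wild-type levels followed P4ha1 most closely (Pearson correlation of log2 levels over 8 tissues) were Tmem198b (0.99), Sparc, Ikbip, Tuba1b and Cul7 (0.97). Sparc is a collagen-binding matrix protein. Slc2a1 ranked 777 in this order and P4ha2 1082. By their Tug1-/- over wild-type ratios the closest were Dynll1 (0.95), Tbc1d8, Sae1, Tuft1 and Hs6st1 (0.92), and Ddit4 ranked 14 (0.90). P4ha2 followed at rank 737 (0.58), and Pdk1 had the most negative value of the 9 genes (-0.60). These are correlations over 8 points, with MEFs and liver at the ends of the P4ha1 levels and liver and heart at the top of its ratios, and they are given as a description. The tissues of a genotype may share animals.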

How the data were processed

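RNA-seq libraries were made by the authors with the TruSeq RNA Sample Preparation Kit v2 and sequenced in mixed pools of mutant and wild-type samples. Per the labels and methods, reads were processed with CASAVA 1.8.2, aligned to GRCm38 (mm10) with STAR, and assigned to GENCODE mouse release 16 genes with featureCounts (uniquely mapped reads). A gene needed 3 reads in at least 1 replicate to be kept, and comparisons were fitted by the authors with DESeq2. The deposited tables hold the authors' mean TPM per group and, outside testes, the mean normalised read count over all libraries of a tissue. The latter is a signal deposited by the authors after library scaling, and the column of TPM that stacks 7 tissues was also handled as a signal. The deposited columns of the authors' own comparisons (fold changes, their errors, statistics and p-values) were not used. Without values of single samples the depth of a given sample is unknown, and no test was run. The labels name the testes table for the other tissues and the reverse. Tissues were therefore taken from the tables' own content, namely the tissue column of one and the rescue columns of the other, and checked against 3 identity genes per tissue.

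Ratios were computed in Python 3.11.15 with numpy 2.4.6, pandas 2.3.3 and matplotlib 3.10.9 as log2 of mean TPM after adding 0.1, and genes with at least 1 TPM in either group were counted past 1.5-fold. The code was run on simulated heart means in which 200 genes of at least 5 TPM were changed by 2-fold or more, and 200 were recovered. These changes lay well past the limit, with little noise and no replicates. The run therefore checks the arithmetic only and says nothing of how reliable the counts are. Members and lists were chosen with earlier results of these data known. Named genes are the 9 members, Tug1, the gene of highest and of lowest median ratio in each list (among genes listed in all 8 tissues), list genes past the limit in 3 or more tissues, the 5 most like P4ha1 by level and by ratio, and genes within 1 Mb of P4ha1 past the limit. Identity genes were used only to check tissues and are not named. Pfkfb3, Adm, Bhlhe40, Serpinh1 and Col5a2 lie outside this rule and were named after their values were seen. Marker lists covered endothelial, erythroid, macrophage, fibroblast and smooth muscle cells and 3 identity genes per tissue. Counting intervals cover counting error only and assume reads spread evenly over libraries. Exon overlaps were read from GENCODE mouse release 21 on GRCm38, where the coordinates of all 9 genes match those deposited. Alternatives were other pseudocounts (0 and 1 TPM), minimum levels (0 and 5 TPM), limits (a 25% difference and 2-fold), centring on the median protein-coding gene of at least 10 TPM, and rescaling without mitochondrial genes and the 50 most abundant genes. Testes of F1 hybrids (6 of 52 samples) were not analysed here.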

Additional observations from a re-analysis of the deposited data

How the results depend on the processing

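The ratio of P4ha1 kept its sign in 8 of 8 tissues under each alternative pseudocount and scaling, and so did that of Ddit4. Its heart ratio was 0.67 under centring and 0.68 under rescaling, its liver ratio 1.253 with a pseudocount of 1 TPM, and its spleen ratio 0.61 under centring. The median of the 9 genes in heart came to 0.12 under centring and 0.13 under rescaling. With a limit of a 25% difference, 4 genes were past it in liver, 4 in spleen, 2 in testes, 2 in MEFs and 1 each in eyes and prostate, and with a limit of 2-fold the number was 1 in heart and 0 in MEFs and in rescue over wild-type testes. Centring gave 1 gene in spleen and 2 in testes, and no pseudocount gave 1 in testes. Between rescue and wild-type testes the number was 1 with a pseudocount of 1 TPM and 1 with a minimum of 5 TPM, with Vegfa kept and Egln3 lost. Over all genes rescaling took the heart median from 0.10 to -0.03. Of 72 gene and tissue pairs, 8 changed sign under centring and 3 under rescaling, each with a ratio within 0.05 of 0. Of the 500 alternative values, 454 moved by 0.1 or less on the log2 scale (counts by at most 1.5 times) and stayed on their side of the limit.

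No paired analysis was possible because the tables hold group means only, and leaving out a replicate was likewise not run. The means limit what can be said: a ratio carried by 1 animal cannot be seen, and prostate rests on 2 Tug1-/- samples. Genes near 1 TPM, such as Ankrd37 in liver and Egln3 in testes, depend most on the pseudocount.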
